A study of Mus musculus with 3 samples.

Results

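NFI binding and histone methylation were examined at 10 genes for transcription factors of mesenchymal cells: Runx1, Runx2, Prrx1, Twist1, Twist2, Zeb1, Zeb2, Snai2, Tead1 and Tcf4. They were chosen by name, and each locus was the gene body with 50 kb on both sides in mm9 (NCBI build 37). These are 10 of 22225 protein-coding genes, and their loci held 88 of the 39807 in vivo NFI sites that the authors deposited. The tags came from 3 libraries of mouse embryonic fibroblasts (MEFs) of strain C57BL/6, taken from embryos of 14.5 days and grown to passages 6-7. One group was NFI ChIP in wild-type (WT) cells, another the same ChIP in cells of NFI-C knock-out (KO) embryos, whose Nfic gene was disrupted by insertional mutagenesis, and the third was wild-type input DNA, sequenced with no antibody. The antibody NFI (H300) recognises the NFI group of proteins, so that NFI-A, NFI-B and NFI-X could still be precipitated from the knock-out cells. Each group had 1 library and no replicate, hence no test was made, and intervals are exact 95% intervals that cover counting error only.

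Nuclear factor I (NFI) proteins are a small family of transcription factors that bind a palindromic DNA sequence as dimers, and also its half-sites. The genes described here encode DNA-binding proteins known from mesenchyme and connective tissue: Runt-domain factors of blood and bone formation, a paired-type homeobox factor of limb and craniofacial mesenchyme, bHLH factors, E-box repressors that lower epithelial genes, and a TEAD factor that recruits the Hippo pathway co-activators. Trimethylation of histone H3 on lysine 4 (H3K4me3) is known from active promoters, on lysine 36 (H3K36me3) from transcribed gene bodies, and on lysine 27 (H3K27me3) from chromatin silenced by Polycomb. Promoters that carry H3K4me3 and H3K27me3 together are called bivalent.

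With at most 1 uniquely mapped tag counted per position and strand, 3350071 WT ChIP tags, 3132004 KO ChIP tags and 4100449 input tags remained. Windows of 300 bp therefore held on average only 0.393, 0.367 and 0.481 tags, which limits what single sites can show. At this depth a count of 0 tags allows an expected count of up to 3, as a one-sided 95% limit, whereas the intervals given here are two-sided. For the knock-out library, the title was used as its label, although a second label line calls the cells wild-type. The histone regions were made by the authors from MEF data of another study and carry no height. At their 5′ ends, all 7 fibroblast markers (Col1a1, Col1a2, Col3a1, Vim, Fn1, Thy1 and Pdgfrb) lay in H3K4me3 and in H3K36me3 regions. None of 4 blood markers lay in either, while 3 of 4 epithelial and 1 of 3 endothelial markers lay in H3K4me3 regions and none of them in H3K36me3 regions. H3K27me3 regions did not separate these lists, since they held the 5′ ends of all 7 fibroblast, 4 of 4 epithelial, 4 of 4 blood and 2 of 3 endothelial markers.

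Sequences are shown for sites with a close match to the NFI palindrome in their 300 bp, as examples of such matches, and for the site nearest to any 5′ end, that of Snai2. Except for Snai2, each printed stretch is centred on the match and not on the site. The match lies 113 bp from the site centre at Runx1, 86 bp at Runx2, 18 bp at Twist2, 48 bp at Zeb2 and 19 bp at Tead1. At Runx1 and Runx2 the printed stretch does not reach the deposited interval. Sites in exons and the sites of Zeb1 and Tcf4 are not printed. The motif searched was TTGGCA followed by 3 free bases and TGCCAA, on both strands, with mismatches counted over its 12 fixed positions. All are mm9 plus strand, 5′ to 3′. Capitals mark the best match to the palindrome, except for Snai2, where they mark the deposited 16 bp interval. The Runx1 and Runx2 matches have 2 mismatches and were chosen after the values were seen, and those of Twist2, Zeb2 and Tead1, at the site named for each gene by its wild-type count and a rule for ties, have 3. For Snai2 the best match had 5 mismatches.
Runx1, downstream, chr16:92565687-92565781: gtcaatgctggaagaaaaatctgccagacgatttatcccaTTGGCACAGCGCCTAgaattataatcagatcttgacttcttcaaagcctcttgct
Runx2, intron, chr17:44779207-44779301: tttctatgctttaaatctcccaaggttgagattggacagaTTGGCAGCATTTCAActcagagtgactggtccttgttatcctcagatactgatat
Twist2, intron, chr1:93738318-93738412: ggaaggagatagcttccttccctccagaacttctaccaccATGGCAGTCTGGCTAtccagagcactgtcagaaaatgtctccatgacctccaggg
Zeb2, upstream, chr2:45002865-45002959: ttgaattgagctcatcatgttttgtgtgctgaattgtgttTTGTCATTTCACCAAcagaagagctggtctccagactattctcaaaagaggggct
Tead1, intron, chr7:119966337-119966431: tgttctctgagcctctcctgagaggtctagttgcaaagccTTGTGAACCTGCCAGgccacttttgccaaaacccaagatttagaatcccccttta
Snai2, upstream, chr16:14705488-14705787: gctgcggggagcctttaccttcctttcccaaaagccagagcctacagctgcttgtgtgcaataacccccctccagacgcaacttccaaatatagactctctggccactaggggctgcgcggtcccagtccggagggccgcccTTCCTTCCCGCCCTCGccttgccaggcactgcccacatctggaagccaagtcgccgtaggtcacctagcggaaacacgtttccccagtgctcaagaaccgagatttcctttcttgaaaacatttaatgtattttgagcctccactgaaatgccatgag

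Every one of the 10 loci contained a deposited NFI site, against 79.2% of all protein-coding loci. The number ranged from 2 at Twist1 and Snai2 to 17 at Tcf4, with a median of 9 against 2 over all genes. The loci are long, with a median of 259 kb against 115.5 kb, so that sites were also counted per length. The loci held 3.09 sites per 100 kb at the median, against 1.61 over all genes and 1.86 over genes longer than 150 kb. At least 3 sites per 100 kb were found at 7 of the 10 loci (17.2% of all genes). Twist2 had the densest locus with 6.14 sites per 100 kb, above 98.9% of all genes, and Prrx1 followed with 5.34, above 97.5%. Tcf4 had 3.83, Zeb2 3.42, Runx2 3.10, Runx1 3.08, Tead1 3.05 and Zeb1 2.82. The lowest densities, 1.96 at Twist1 and 1.93 at Snai2, rest on 2 sites each and were still above 62.6% and 61.3% of all genes. Site density went with the number of wild-type tags over the whole locus, with a Spearman's rho of 0.663 over 22225 genes and 0.879 over the 10. At the median, the 10 loci had 1.35 times the genome average of wild-type tags, against 1.10 over all genes. For the input both values were 1.24. The part of this coverage in the densities was not tested.

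**Figure D1:**
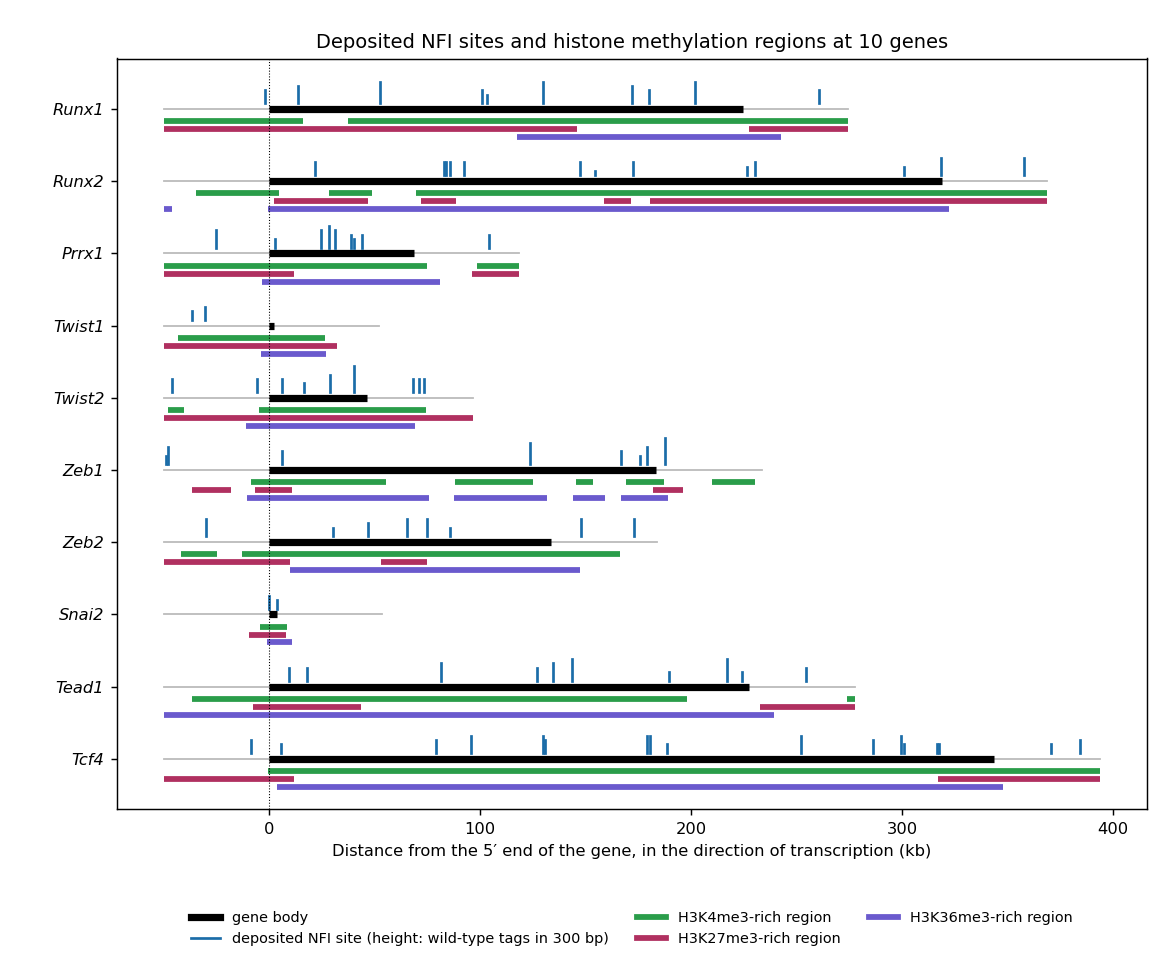
Position of the deposited NFI sites (blue ticks, height in proportion to the wild-type tags in 300 bp, from 1 to 6) and of the regions rich in H3K4me3 (green), H3K27me3 (red) and H3K36me3 (violet) at the 10 genes. The horizontal axis is the distance in kb from the 5′ end along the direction of transcription, black bars are gene bodies and grey lines the 50 kb flanks. Sites lie throughout the gene bodies of Runx2, Tead1 and Tcf4, whereas Twist1 and Snai2 have 2 sites each.

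Of the 88 sites, 60 lay in introns of the genes, 4 in exons, 11 upstream and 13 downstream. The gene bodies made up 60.8% of the length of the loci and held 72.7% of the sites. A gene body with a site was seen for 8 of the 10 genes (35.4% of all genes), the exceptions being the short genes Twist1 and Snai2. The gene bodies were long, with a median of 159 kb against 15.5 kb over all genes, and this share was not compared at equal length. A site within 5 kb upstream of an annotated start of the gene was seen for 5 of the 10, namely Runx1, Prrx1, Snai2, Tead1 and Tcf4 (18.1% of all genes). The genes have more annotated starts than most, with a median of 6.5 against 2. Within 1 kb of an annotated start of a protein-coding gene lay 3 sites (8.24% of all sites). Another site within 2 kb was found for 15 of the 88 (9.03% of all sites).

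Runx1 (ENSMUSG00000022952.9, chromosome 16, 92601712 to 92826311, minus strand), a Runt-domain factor required for blood formation, spans 225 kb and has distal and internal promoters. Its locus held 10 sites, of which 8 lay in the gene body. Its highest wild-type count, 5 tags in 300 bp, was found at 3 sites, among them that of 92696714 to 92696729, which had 0 tags in both the knock-out ChIP and the input. This site lies in an exon, 852 bp after the internal start at 92697573, and is 129590 bp from the 5′ end of the gene. Another site lay 1837 bp before the 5′ end, with 3 WT, 2 KO and 0 input tags. The downstream site whose best match is printed above, beginning with an intact half-site, had 3, 0 and 0 tags.

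The histone regions divided Runx1 between its promoters. An H3K4me3 region of 203 kb covered the distal starts and another of 248.6 kb the internal ones, together 90.6% of the gene body, and an H3K27me3 region of 928 kb covered all of them. H3K36me3 covered only the 3′ part, from 118 kb inside the gene to beyond its 3′ end, and so included the 3 internal starts but neither of the 2 distal starts. H3K36me3 regions covered 47.6% of the gene body, the lowest value of the 10 genes.

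Runx2 (ENSMUSG00000039153.9, chromosome 17, 44632936 to 44951746, minus strand), the Runt-domain factor of bone formation, spans 319 kb and held 13 sites, 12 of them in the gene body. No site lay near its 5′ end, the closest being 21865 bp inside the gene and also within Supt3h, which overlaps Runx2. The highest wild-type count was found at 2 sites, among them that of 44633070 to 44633085, in an annotated exon close to the 3′ end, with 4 WT, 1 KO and 1 input tag. A group of 4 intron sites lay 2923 to 12074 bp after the last internal start, each with 3 wild-type tags and at most 1 knock-out tag. The intron site whose best match is printed had 3, 1 and 0 tags.

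Runx2 was the exception among the 10 genes for H3K27me3 at the 5′ end, since the nearest region began 2.20 kb inside the gene. At the internal starts, 78.2 to 80.1 kb inside the gene, all 6 lay in H3K4me3, H3K27me3 and H3K36me3 regions. The 5 distal starts lay in H3K4me3 and H3K36me3 regions only. H3K36me3 covered the whole gene in 1 region of 323 kb, while 3 H3K4me3 regions covered 85.9% and 4 H3K27me3 regions 66.7% of the gene body.

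Prrx1 (ENSMUSG00000026586.8, chromosome 1, 165175247 to 165243841, minus strand) encodes a homeobox factor of limb and craniofacial mesenchyme. Of its 9 sites, 7 lay in the gene body and the strongest was intronic at 165215695 to 165215710, with 5 WT, 3 KO and 1 input tag. A further site lay 66 bp upstream of an internal start, 24.5 kb inside the gene, and gave 4 WT, 1 KO and 0 input tags. Summed over the 9 sites, Prrx1 gave 30 WT, 16 KO and 9 input tags. The knock-out to wild-type ratio of 0.571 (0.29 to 1.08) had the highest point estimate of the 10 genes, with an interval that overlapped those of all others. H3K4me3 and H3K36me3 regions covered its whole body, but H3K27me3 covered 17.1%, at the 5′ end.

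Twist1 (ENSMUSG00000035799.5, chromosome 12, 34642536 to 34644682, plus strand), a bHLH factor of cranial and limb mesenchyme, is 2.15 kb long. Both of its sites lay upstream, the closer one 30436 bp before the start. This site, at 34612093 to 34612108, gave 3 WT, 1 KO and 1 input tag, and the farther one 2, 1 and 0 tags. All 3 histone marks covered the whole gene body. The H3K4me3 region spanned 69.9 kb and the H3K27me3 region 83.9 kb, and both also included the upstream sites, while the H3K36me3 region of 30.8 kb did not.

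Twist2 (ENSMUSG00000007805.3, chromosome 1, 93698038 to 93744605, plus strand), a related bHLH factor of dermal fibroblasts, held 9 sites, 4 in the gene body, 2 upstream and 3 downstream. The intron site printed above, at 93738376 to 93738391 and 40345 bp after the start, gave 6 WT, 0 KO and 1 input tag. This and a Zeb1 site were the highest of the 88 in the wild-type ChIP. The 3 downstream sites stood 67.9 to 73.2 kb after the start, each with 3 wild-type tags, and had 1, 3 and 2 knock-out tags. Another intron site, 6188 bp after the start, gave 3 WT, 1 KO and 4 input tags, so that the input there was at least as high as the ChIP. Twist2 lay inside an H3K27me3 region of 250 kb, which covered its entire locus, and its body was also fully covered by H3K4me3 and H3K36me3 regions.

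Zeb1 (ENSMUSG00000024238.5, chromosome 18, 5591858 to 5775465, plus strand), a zinc-finger repressor of E-cadherin, held 8 sites over a locus of 284 kb. The strongest lay downstream of the gene at 5779588 to 5779603, 187737 bp after the 5′ end, with 6 WT, 0 KO and 1 input tag. An intron site 123747 bp after the start had 5, 0 and 0 tags. Together the 8 sites gave 29 WT, 4 KO and 4 input tags. One site, 175906 bp after the start, lay in an annotated exon with 2, 1 and 0 tags, and the 2 farthest upstream sites lay in the neighbouring gene Gm10125. H3K4me3 covered Zeb1 in patches, with 4 regions over 62.4% of its body, the lowest share of the 10 genes. H3K27me3 covered 6.78%, also the lowest, and H3K36me3 82.8%.

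Zeb2 (ENSMUSG00000026872.8, chromosome 2, 44839154 to 44972915, minus strand), the other repressor of this family, also held 8 sites. The closest to its 5′ end was the printed upstream site at 45002953 to 45002968, 30045 bp away, with 4 WT, 1 KO and 0 input tags. It was 1 of 5 sites with 4 wild-type tags, the highest count at Zeb2. No Zeb2 site had more than 1 knock-out tag, and the sums were 27 WT, 4 KO and 7 input tags. All 10 annotated starts of Zeb2, within 7.02 kb, lay in H3K4me3 and H3K27me3 regions and none in an H3K36me3 region. The H3K36me3 region began 9.64 kb inside the gene, close to where the H3K27me3 region ended at 9.93 kb, and ran past the 3′ end, covering 92.8% of the body.

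Snai2 (ENSMUSG00000022676.6, chromosome 16, 14705945 to 14709488, plus strand), the zinc-finger repressor also called Slug, had the site nearest to the 5′ end of a gene. At 14705630 to 14705645 this site stood 308 bp upstream, with 3 WT, 2 KO and 1 input tag. In 600 bp it had 5, 5 and 3 tags, with equal counts in both ChIP libraries. The second site, 3553 bp after the start and just past the 3′ end, had 2, 0 and 0 tags. Snai2 was covered by all 3 marks, in the shortest H3K4me3 region of the 10 genes at a 5′ end (12.8 kb).

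Tead1 (ENSMUSG00000055320.8, chromosome 7, 119822832 to 120050319, plus strand) encodes a DNA-binding partner of the Hippo pathway co-activators YAP and TAZ. It held 10 sites, 9 in the gene body, and the first of them was 9418 bp after the 5′ end. The printed intron site at 119966358 to 119966373, 143533 bp after the 5′ end, gave 5 WT, 1 KO and 0 input tags and contained a half-site. Another intron site, 217136 bp after the 5′ end, had 5, 0 and 1 tags. With 34 WT, 7 KO and 13 input tags over the 10 sites, Tead1 had the highest mean input count per site of the 10 genes (1.3). H3K36me3 covered the gene whole in a region of 306 kb and H3K4me3 covered 87.0%, while H3K27me3 covered 19.15% and so included 5 of the 11 annotated starts.

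Tcf4 (ENSMUSG00000053477.9, chromosome 18, 69503800 to 69847621, plus strand) encodes an E protein, a bHLH partner of tissue-specific factors such as TWIST1. It is the longest of the 10 genes and held 17 sites, 14 in the gene body. The highest wild-type count, 4 tags, was shared by several sites. The one named by the rule for ties was intronic at 69633655 to 69633670, with 4 WT, 2 KO and 0 input tags. Its 300 bp held 2 half-sites and a palindrome match with 2 mismatches, whereas the best matches at the tied sites had 4 or 5. Another intron site with such a match, 286508 bp after the 5′ end and named after its values were seen, gave 3 WT, 7 KO and 0 input tags. This was the highest knock-out count of the 88 sites, and in 600 bp the counts were 6, 10 and 0. In sum the Tcf4 sites gave 51 WT, 22 KO and 9 input tags, and the knock-out ChIP stood at 3.2 times the input (1.42 to 7.90). Without the site of 7 knock-out tags, 15 KO and 9 input tags remained, and the ratio of 2.18 (0.895 to 5.66) had an interval that included 1.

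H3K4me3 formed 1 region of 406 kb from just before the Tcf4 start to beyond the gene, longer than 99.95% of the H3K4me3 regions. H3K36me3 began 3.49 kb after the start and covered 99.0% of the body. H3K27me3 lay at both ends and covered 11.2%. Of the 14 annotated starts, the 6 near the 5′ end lay in H3K4me3 and H3K27me3 regions, the next 6 in H3K4me3 and H3K36me3 regions, and the last 2 in all 3.

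Over the 88 sites, the wild-type ChIP had 285 tags in 300 bp, the knock-out ChIP 84 and the input 73. The means were 3.24, 0.955 and 0.830 tags per site. The sites were called on the wild-type library, a selection that raises its counts. Its ratio to the input was 4.78 (3.68 to 6.27) with both libraries scaled to their totals. The knock-out to wild-type ratio was 0.315 (0.244 to 0.403). The share of the selection in these 2 ratios cannot be told apart from a difference between the libraries. The knock-out ChIP took no part in the choice of sites, and its tags stood at 1.51 times the input (1.09 to 2.09). Coverage that both ChIP libraries share against the input could still link this ratio to the choice. Its part was not tested, and the only input was from wild-type cells. None of the 88 sites had 5 or more input tags (2.03% of all sites did). The ratio was 1.12 (1.10 to 1.14) over all 39807 deposited sites and 1.43 (1.40 to 1.45) over those with fewer than 5 input tags, a condition that itself lowers the input, and both lay inside the interval of the 88. Without the Tcf4 site with 7 knock-out tags the value was 1.38 (0.9895 to 1.93), and the interval included 1.

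**Figure D2:**
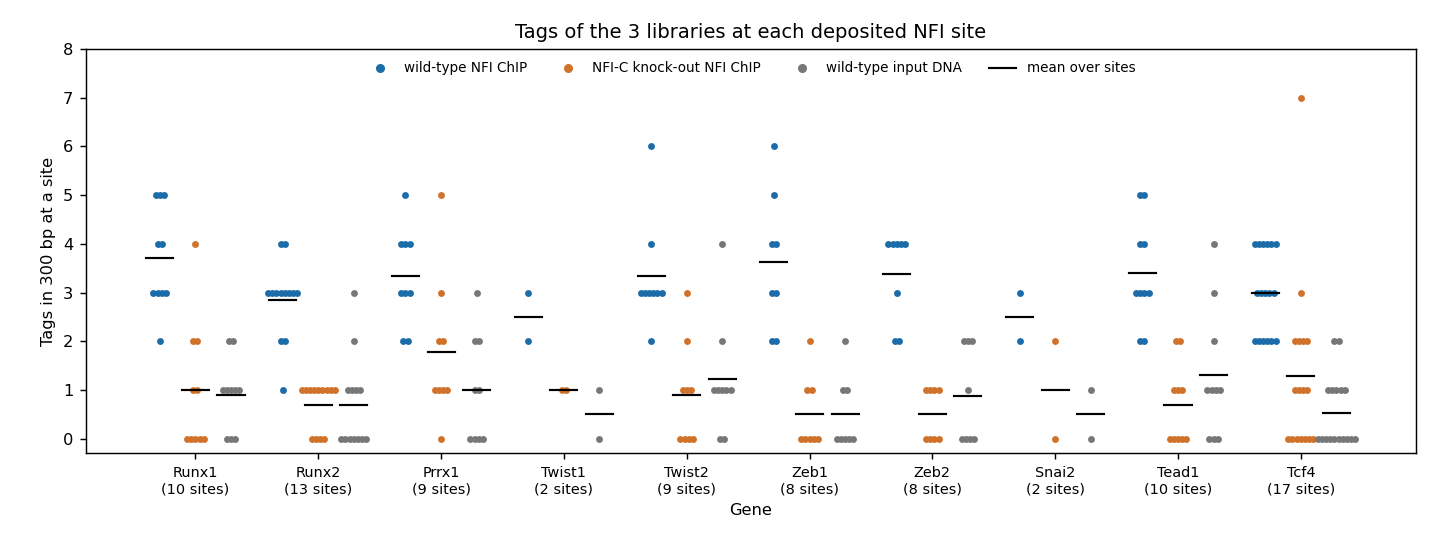
Tags in 300 bp at each of the 88 deposited NFI sites, by gene, in the wild-type NFI ChIP (blue), the NFI-C knock-out NFI ChIP (orange) and the wild-type input DNA (grey); each point is a site and bars are means over sites. Wild-type counts lie between 1 and 6, most knock-out and input counts between 0 and 2, and 1 Tcf4 site has 7 knock-out tags.

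In the wild-type ChIP, 35 sites had 3 tags and 23 had 4, with 9 sites at 5 or more (11.4% of all sites). The authors called the sites with a threshold of 5 tags, which the counts used here did not reproduce. No knock-out tag was seen at 36 sites, which is 40.9% against 58.4% of all sites, and no input tag at 40 sites (53.6%). At least 3 knock-out tags were seen at 6 sites (7.01% of all sites). The knock-out count was above the wild-type count at 2 sites (3.23% of all sites), the Tcf4 intron site and a site downstream of Prrx1. The latter, 104253 bp after the 5′ end of Prrx1, gave 3 WT, 5 KO and 2 input tags. At the genes other than Tcf4, the interval of the knock-out to input ratio included 1, and the point estimates ran from 0.705 at Tead1 to 2.62 at Twist1 and Snai2, where it rests on 2 against 1 tags.

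A palindrome match with at most 2 mismatches was found in 300 bp at 4 of the 88 sites (3.01% of all sites), of which 1 was at Runx1, 1 at Runx2 and 2 at Tcf4. In windows of the same length 2 kb away on both sides, 4 of 176 had one (2.27%), against 1.26% of such windows around all sites. With at most 3 mismatches there were 20 sites (15.8%), and with at most 1 there were 0 (0.517%). An intact half-site, TTGGCA on either strand, stood in 21 sites (18.6%) and in 26 of the 176 windows 2 kb away (14.8%, and 14.6% around all sites). These 21 sites gave 69 WT, 21 KO and 7 input tags, and the other 67 had 216, 63 and 66. The knock-out ChIP over the input was 3.93 (1.61 to 10.9) with a half-site and 1.25 (0.871 to 1.79) without, intervals that overlap. Over all sites with fewer than 5 input tags the values were 1.80 (1.74 to 1.87) and 1.34 (1.31 to 1.37), in the same order. The counts behind this order differed. Mean knock-out counts at the 88 sites were 1 and 0.9403 tags with and without a half-site, and mean input counts 0.3333 and 0.9851. Over the larger set these means were 0.9213 and 0.6511 in the knock-out ChIP and 0.669 and 0.6369 in the input. The wild-type ChIP over the input was 12.07 and 4.006 at the 88 sites, but 6.091 and 6.139 over the larger set. Twist2 had a half-site in 1 of its 9 sites, and Snai2 and Twist1 in none.

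Motifs of the encoded factors were also counted on both strands in the same windows, where the palindrome and half-sites may overlap them. The RUNX motif TGTGGT stood in 22 sites (19.9% of all sites), the TEAD motif GGAATG in 10 (17.3%), the E-box CACCTG of the ZEB and SNAI repressors in 10 (15.5%), and an E-box CAGATG or CATATG, as bound by TWIST proteins, in 32 (27.1%). The AP-1 motif TGANTCA stood in 16 (12.4%). These are matches of short letters and not binding sites.

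The 5′ end lay in an H3K4me3 region in all 10 genes (63.2% of all genes), in an H3K27me3 region in 9 (70.6%) and in an H3K36me3 region in 7 (37.3%). H3K4me3 and H3K27me3 occurred together at 9 (54.7%), as at all 7 fibroblast markers, and all 3 marks at 6 (28.8%): Prrx1, Twist1, Twist2, Zeb1, Snai2 and Tead1. The H3K36me3 exceptions were Runx1, Zeb2 and Tcf4. Counted over all 67 annotated starts of the genes, 67 lay in H3K4me3, 48 in H3K27me3 and 49 in H3K36me3 regions, and 30 in all 3. The same count was not made over the starts of all genes, so that these numbers have no background beside them.

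H3K4me3 was broad at these genes. The region at the 5′ end had a median length of 129 kb in the 10 genes, from 12.8 kb at Snai2 to 406 kb at Tcf4, against 28.6 kb over the 14055 genes with such a region. At least 80% of the gene body was covered by H3K4me3 in 9 of the 10 genes (28% of all genes) and in 11 of 15 other genes of their families and partners, although genes longer than 150 kb had a median coverage of only 14.6%. H3K36me3 covered at least 80% of the body in 9 (45.6%) and H3K27me3 in 3 (41.2%), the latter being Twist1, Twist2 and Snai2. As deposited, H3K4me3 regions took 18.1% of the genome, H3K36me3 regions 18.7% and H3K27me3 regions 38.9%, so that they are broad domains rather than narrow peaks.

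Of the 88 NFI sites, 77 were in H3K4me3 regions (42.6% of all sites) and 65 in H3K36me3 regions (35.4%). H3K27me3 regions held 45, a share near that of all sites (54.4%), with 23 in all 3 (13.2%). The regions also covered much of these loci. The median share of a locus in H3K4me3 regions was 78.4% in the 10 genes, against 25.4% over all genes. For H3K36me3 it was 56.9% against 35.4%, and for H3K27me3 42.5% against 50.1%. Whether the sites fell in these regions more often than the coverage of the loci implies was not tested. At the 45 sites in H3K27me3 regions the counts were 143 WT, 37 KO and 45 input tags, and at the other 43 sites 142, 47 and 28. The knock-out ChIP over the input was 1.08 (0.678 to 1.70) inside and 2.20 (1.35 to 3.64) outside these regions, intervals that overlap. Over all sites with fewer than 5 input tags the order was the opposite, 1.48 (1.45 to 1.52) inside and 1.35 (1.32 to 1.39) outside.

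Tags were then counted over whole loci, where 4390 WT, 4100 KO and 5313 input tags fell in 2553 kb. The wild-type ChIP over the input was 1.01 (0.971 to 1.05), the knock-out ChIP over the input 1.01 (0.970 to 1.05), and the knock-out over the wild-type ChIP 0.999 (0.957 to 1.04). With every uniquely mapped tag, the ratios to the input were 1.04 (1.01 to 1.08) and 1.07 (1.04 to 1.11), and both intervals lay above 1. This setting also counts repeats at the same position and strand, giving 12296 WT, 13995 KO and 6525 input tags. Its intervals treat such repeats as independent, here and for single genes, and are too narrow where repeats copy the same fragment. Over gene bodies without flanks, the knock-out ChIP over the input was instead 0.939 (0.892 to 0.988), below 1. No gene reached a 1.25-fold difference between the ChIP libraries in either direction (6.92% of all genes were higher and 5.75% lower in the knock-out), and all 10 intervals included 1. When every uniquely mapped tag was counted, Runx1, at 1.12 (1.05 to 1.197), and Runx2, at 1.16 (1.09 to 1.23), lay above 1. The point estimates ran from 0.936 (0.829 to 1.06) at Tead1, with 577 wild-type and 505 knock-out tags, to 1.17 (0.892 to 1.54) at Snai2, with 106 and 116.

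Against the input, 1 of the 10 loci, Snai2, was at least 1.25-fold higher in the wild-type ChIP (5.75% of all genes), and also in the knock-out ChIP (6.35%). None was at least 1.25-fold lower, against 32.8% and 32.1% of all genes. Snai2 gave 106 WT, 116 KO and 95 input tags, ratios of 1.37 (1.03 to 1.82) and 1.60 (1.21 to 2.12) over the input. Its input was the sparsest of the 10 loci at 0.573 times the genome average, whereas the wild-type ChIP was at 0.782 times. Prrx1, with 329, 288 and 338 tags, had 1.19 (1.02 to 1.39) and 1.12 (0.95 to 1.31). Zeb2, with 414, 410 and 443 tags, had 1.14 (0.998 to 1.31) and 1.21 (1.06 to 1.39).

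Tcf4 gave 797 WT, 740 KO and 869 input tags, and ratios over the input of 1.12 (1.02 to 1.24) and 1.12 (1.01 to 1.23). Tead1 was the lowest, with 577, 505 and 815 tags and ratios of 0.867 (0.778 to 0.965) and 0.811 (0.725 to 0.908). For the remaining loci all intervals included 1 in this setting. Runx1 had 595, 559 and 785 tags, Runx2 718, 704 and 919, Zeb1 422, 385 and 510, Twist2 272, 252 and 349, and Twist1 160, 141 and 190. Most of the intervals that excluded 1 did not do so in every one of 6 other ways of counting. The wild-type interval came to include 1 in 4 of the 6 at Prrx1 and Tead1, in 3 at Tcf4 and in 2 at Snai2. The knock-out interval did so in 3 at Zeb2, in 2 at Tcf4 and in 1 at Tead1. The knock-out interval of Snai2 lay above 1 in all 6. In the wild-type ChIP, Runx1 conversely lay below the input in 3 of the 6, among them the count of every uniquely mapped tag, at 0.856 (0.789 to 0.928). Intervals that included 1 came to exclude it in 1 or 2 of the 6 at Runx2, Twist1, Zeb1 and Zeb2 in the wild-type ChIP and at Prrx1, Twist1 and Twist2 in the knock-out ChIP. At Twist1 the wild-type ratio moved in opposite directions. It was 1.215 (1.04 to 1.43) with every uniquely mapped tag and 0.191 (0.0582 to 0.495) over the gene body alone.

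These ratios followed the base composition of the loci. Loci of 38 to 40% G and C had a median wild-type to input ratio of 1.12 over all genes, and loci of 46 to 48% had 0.809. Across the 10 loci, G and C ran from 39.9% at Twist1 to 47.8% at Twist2, and Spearman's rho with the wild-type to input ratio was -0.806, against -0.770 over 21446 genes. These loci share the same libraries. At Tead1, with 46.0% G and C, the interval of the wild-type ratio included that median of 0.809, while at Runx1 and Twist2, with 47.0 and 47.8%, it lay above it. Snai2, Prrx1 and Zeb2, with 40.1 to 40.7%, had intervals that included the median of 1.03 for loci of 40 to 42%. In the knock-out ChIP, where this median was 1.04, the intervals of Snai2 and Zeb2 lay above it. The Tcf4 intervals lay above the medians of 0.958 and 0.957 for loci of 42 to 44% in both ChIP libraries. The knock-out over the wild-type ChIP had a rho of 0.11 with G and C over all genes and -0.055 over the 10. The part of base composition in the differences between these genes was not tested.

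**Figure D3:**
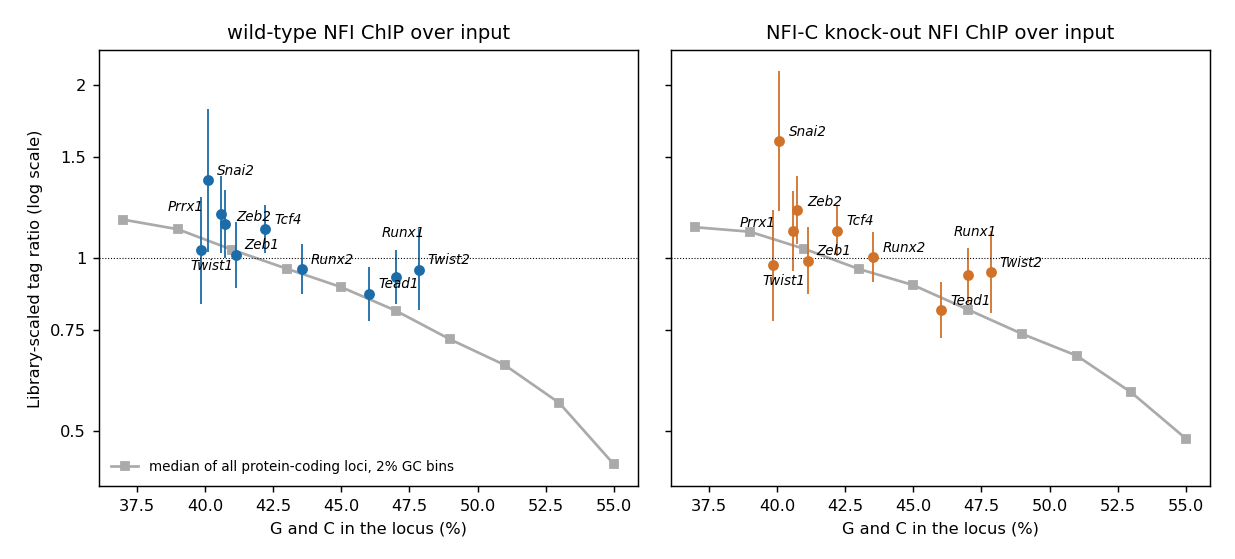
Library-scaled ratio of ChIP to input tags at the 10 loci (points, with exact 95% intervals for counting error, log axis) against the share of G and C in the locus, for the wild-type (left) and the NFI-C knock-out ChIP (right). The grey line joins medians of all protein-coding loci in bins of 2% G and C and falls from left to right; in both panels Snai2 is the highest of the 10 and Tead1 the lowest.

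Finally, tags were counted within 1 kb on both sides of the 5′ ends. With libraries scaled to their totals, both ChIP libraries had fewer tags there than the input in 7 of the 10 genes, a share near that of all promoters (64.7%). The input had 54 tags at Tead1, 34 at Twist1, 30 at Twist2, 24 at Zeb1 and 16 at Tcf4. At the same promoters the wild-type ChIP had 3, 3, 5, 7 and 3 tags and the knock-out ChIP 2, 7, 7, 2 and 1. The opposite was seen at Snai2, with 10 WT, 14 KO and 8 input tags, at Runx2, with 9, 4 and 3, and at Prrx1, with 5, 6 and 3, although their intervals over the input included 1. Zeb2 had 4, 5 and 9 tags and Runx1 0, 2 and 5, and the wild-type intervals over the input of these genes also included 1.

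Summed over the 10 promoters, there were 49 WT, 50 KO and 186 input tags. The wild-type ChIP over the input was 0.322 (0.230 to 0.444), against 0.312 (0.310 to 0.315) over the promoters of all 22225 genes. A difference between the genotypes was not detectable at this depth, the knock-out to wild-type ratio being 1.09 (0.721 to 1.65).

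**Figure D4:**
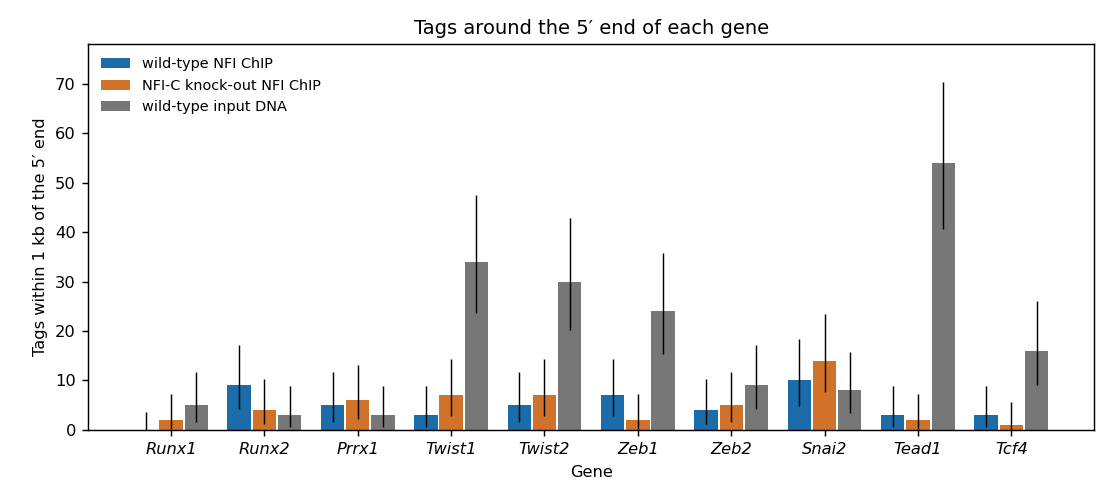
Tags within 1 kb of the 5′ end of each gene in the wild-type NFI ChIP (blue), the NFI-C knock-out NFI ChIP (orange) and the wild-type input DNA (grey), as counts that are not scaled for library size, with exact 95% Poisson intervals. The input stands above both ChIP libraries at Runx1, Twist1, Twist2, Zeb1, Zeb2, Tead1 and Tcf4, with 54 tags at Tead1.

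Other genes of the same families and their partners (Runx3, Cbfb, Prrx2, Snai1, Snai3, Tead2, Tead3, Tead4, Yap1, Wwtr1, Tcf3, Tcf12, Id1, Id2 and Id3) were taken as a list of 15. All 15 loci held a site, and the median density was 1.91 sites per 100 kb. Tcf12, with 4.35, and Cbfb, with 3.39, were the 2 that reached 3 sites per 100 kb. The 15 genes were shorter, with a median length of 24.1 kb against 159 kb in the 10. Their loci were richer in G and C, with a median of 49.7% against 41.7% in the 10 genes, and 10 of the 15 were at least 1.25-fold below the input in the wild-type ChIP. H3K4me3 covered the 5′ end of 14, H3K27me3 of 15 and H3K36me3 of 8. At least 80% of the gene body lay in H3K4me3 regions in 11 of the 15, in H3K36me3 regions in 13 and in H3K27me3 regions in 8. Between the ChIP libraries, none was at least 1.25-fold higher in the knock-out and 1 was lower.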

How the data were processed

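Reads of the 3 libraries were mapped by the authors to mm9 with ELAND and deposited with match code, position and strand, and the counts used here are counts of these deposited reads, without normalization. The version of ELAND was not given in the sources used here. The runs of a library were pooled. Uniquely mapped tags with up to 2 mismatches were counted by their 5′ end, 1 per position and strand. ELAND aligned the first 32 bases, which set the 5′ end of reverse tags. The library totals were 3350071, 3132004 and 4100449 tags, from 14358325, 16330049 and 12029975 reads.

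In vivo sites were the list of 16 bp intervals that the authors made with ChIP-peak on the wild-type library. The settings were windows of 300 bp, a threshold of 5 tags, a count cut-off of 1 tag and a repeat filter. The counts used here did not reproduce this call, since most sites had fewer than 5 wild-type tags. Histone regions were rebuilt from deposited boundary positions. Genes came from GENCODE vM1 on the same build, with entries of 1 symbol merged where they overlapped.

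Ratios were scaled by library totals, with exact binomial 95% intervals, and checked on simulated Poisson counts. These follow the model that the intervals assume, so that the check covers the calculation and not its fit to these libraries. A ratio was called from 1.25-fold, or 0.8-fold, over the 21446 genes with at least 50 input tags. The 10 genes, the lists, the motifs and the markers were chosen with earlier results of these data known. The site named for each gene was the one with the highest wild-type count, provided that its input count was below 5. Ties went to the fewest input tags, then to the site nearest to the 5′ end. Alternatives concerned the count cut-off, mismatches, flanks, bins of high input, runs, windows, the tag shift, the motif and the promoter. With 1 library per group no test was made. Lists of lamina domains and miRNAs were not used here. Python 3.11.15, NumPy 2.4.6, SciPy 1.17.1 and matplotlib 3.10.9 were used.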

Additional observations from a re-analysis of the deposited data

How the results depend on the processing

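Of the 9 ratios of single genes whose interval excluded 1, 8 came to include it under at least 1 alternative (20 of 49 repeats), although none crossed to the other side, and of 22 whose interval included 1, 10 came to exclude it (15 of 132 repeats). Ratios of the 10 genes together changed in this way in 2 of 16 and 5 of 18 repeats. For the 10 genes together, 30 of the 34 ratios stayed inside their counting interval and 4 did not, and of 7 repeated counts and densities 1 changed by more than 1.5 times. The knock-out ChIP over the input at the loci, 1.01, was 1.07 (1.04 to 1.11) with every uniquely mapped tag and 1.07 (1.003 to 1.13) with the first sequencing run alone, above the input, and 0.939 (0.892 to 0.988), below the input, over gene bodies without flanks. The knock-out over the wild-type ChIP at the loci, 0.999, was 1.03 (1.004 to 1.05) with every uniquely mapped tag. With every such tag, the ratio to the input in the wild-type ChIP was 1.215 (1.04 to 1.43) at Twist1, 1.16 (1.05 to 1.27) at Zeb1, 1.29 (1.17 to 1.43) at Zeb2 and 0.925 (0.860 to 0.996) at Runx2, and in the knock-out ChIP 1.23 (1.096 to 1.38) at Prrx1. Intervals with every uniquely mapped tag treat repeats at a position as independent and can be too narrow. The counts of intervals that came to exclude 1 include this setting. The 4 palindrome matches fell to 0 with at most 1 mismatch, and the wild-type ChIP over the input at promoters was 0.840 (0.637 to 1.10) in the 5 kb upstream, an interval that included 1, against 0.322 within 1 kb on both sides. Of the 181 repeats for single genes, 161 stayed inside their interval and 20 did not. Over its gene body alone, Snai2 had 17 wild-type and 5 input tags, a ratio of 4.16 (1.47 to 14.4), and Twist1 had 5 and 32, a ratio of 0.191 (0.0582 to 0.495) against 1.03 over its locus, and Twist2 had 0.704 (0.528 to 0.934) in the knock-out ChIP. The knock-out over the wild-type ChIP at Snai2 went from 1.17 to 0.818 (0.365 to 1.79). Without the 1% of 10 kb bins with the most input tags, Prrx1 had 1.16 (0.991 to 1.35), Snai2 1.33 (0.996 to 1.77) and Tcf4 1.09 (0.989 to 1.202) in the wild-type ChIP and Tcf4 1.08 (0.981 to 1.197) in the knock-out ChIP, and the Tead1 ratio to the input went from 0.867 to 0.970 (0.865 to 1.09) in the wild-type and from 0.811 to 0.911 (0.809 to 1.02) in the knock-out ChIP. The cause was not tested. Leaving out the site with the most knock-out tags, over the 88 sites and over those of Tcf4, was chosen after seeing the data. Depth limits all statements on single sites, and with no replicate the spread between cultures is unknown. No paired analysis was possible because each group had 1 library.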
